A study of Mus musculus with 6 samples.

Results

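The 36 genes described here act in mitosis: they encode cyclins and kinases that drive entry, the spindle checkpoint, the kinetochore, motors of the spindle and the machinery of cytokinesis. They were taken as a named list, not by a cut on their values, but with earlier results of these data known. The list was drawn from the 54532 Ensembl genes that the authors deposited for each library. All 36 were found by symbol and had enough counts to be tested. RNA came from LSK cells, the bone marrow gate of cells with Sca-1 and c-Kit but no lineage markers, which holds blood stem cells and early progenitors, in male mice. All 6 libraries carried Phf6fl-R274X/Y, an allele of Phf6, an X-linked gene, that is floxed so that R274X, a stop codon, is expressed only once Cre has acted. In 3 libraries (controls) no Cre was present, and in 3 (R274X libraries) the allele was combined with Vav1-Cre, whose Vav1 promoter is active across blood cells. The series title concerns self-renewal and repopulation by stem cells. The labels as used here say nothing of age, of the number of animals or of pooling, so p-values measure the spread between libraries, which may be technical. No control carried Vav1-Cre, so the effect of Cre and that of R274X cannot be told apart.

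Mitotic genes are transcribed in a wave late in the cell cycle and their RNA is low in resting cells, which is why several of them, Mki67 above all, serve as proliferation markers. In resting cells they are held down by the DREAM complex and in G2 they are switched on by MuvB with B-Myb and FoxM1, largely through a promoter element named the cell cycle genes homology region (CHR). Adult stem cells are mostly quiescent, while the multipotent progenitors of the same gate divide more often. In a bulk sample, more cycling cells and more mitotic RNA per cycling cell cannot be told apart.

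Total counts per library ran from 15406314 to 18106065, and each of the 36 genes had between 300 and 4724 counts in every library. The targeted gene was lower in every R274X library than in any control. Phf6 measured 31.6 ± 1.98 CPM without Cre and 9.01 ± 1.08 CPM with it (SD, n = 3 each). CPM is the count of a gene relative to the total of its library, with TMM factors applied between libraries. Of 10 markers of the LSK gate 1 rose, Ly6a (Sca-1; 141.7 ± 5.07 to 247 ± 15.6 CPM), and 8 fell, among them Kit (c-Kit; 158.3 ± 12.8 to 96.7 ± 14.8 CPM; SD, n = 3 each). Immunoglobulin genes took 0.293% to 1.18% of control counts and 4.45% to 7.95% of R274X counts.

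The promoters of these genes are shown first because the CHR is the element known for this gene class. RefSeq (GRCm38.p6) gave a window from 250 bases before to 50 bases after the start for 30 of the 36. The others are Ccna2, Aurkb, Incenp, Kif20a, Spc24 and Tpx2. The CHR was searched as TTTGAA and the CCAAT box, the site of NF-Y, as CCAAT, each on both strands; the motifs share no complete match. A gene was counted when any of its windows matched, and some genes, Prc1 and Ect2 among them, had several windows. Of the 30 genes, 23 (76.7%) had the CHR letters, against 20.2% of 27025 genes in the table. The CCAAT letters were present in 23 (76.7%), against 41.1%. Both occurred together in 20 (66.7%), against 8.0% of all genes. A match is a description of letters, not evidence of a bound site. By outcome, the CHR letters were in 12 of 16 that rose and in 11 of 14 that did not pass, and the CCAAT letters in 13 and 10. The stretches below run from 155 to 6 bases before the start and show the 2 genes with the smallest p among those with a window (Ube2c, Birc5) and the 3 with the largest (Cenpe, Kif2c, Anln). They read 5′ to 3′ on the strand of the gene, with CHR and CCAAT matches in capitals.
Ube2c: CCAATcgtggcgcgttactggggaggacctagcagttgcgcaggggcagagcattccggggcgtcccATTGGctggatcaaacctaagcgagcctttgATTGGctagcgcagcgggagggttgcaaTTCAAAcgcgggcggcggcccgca
Birc5: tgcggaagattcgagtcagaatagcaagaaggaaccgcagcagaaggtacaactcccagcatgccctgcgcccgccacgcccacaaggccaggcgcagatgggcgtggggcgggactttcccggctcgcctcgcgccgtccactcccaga
Cenpe: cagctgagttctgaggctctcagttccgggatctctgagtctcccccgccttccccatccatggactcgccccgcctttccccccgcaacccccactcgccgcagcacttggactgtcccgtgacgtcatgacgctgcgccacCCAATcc
Kif2c: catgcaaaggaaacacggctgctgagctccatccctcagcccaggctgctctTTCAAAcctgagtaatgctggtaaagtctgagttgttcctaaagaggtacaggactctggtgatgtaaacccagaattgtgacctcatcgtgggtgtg
Anln: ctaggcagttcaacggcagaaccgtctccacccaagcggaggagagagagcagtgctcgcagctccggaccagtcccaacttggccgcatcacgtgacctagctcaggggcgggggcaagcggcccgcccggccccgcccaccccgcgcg

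The stretches lie at chr2:164769774-164769923 (plus strand) for Ube2c, chr11:117849082-117849231 (plus strand) for Birc5, chr3:135212408-135212557 (plus strand) for Cenpe, chr4:117178778-117178927 (minus strand) for Kif2c and chr9:22389212-22389361 (minus strand) for Anln. Ube2c had a CHR match 29 bases before the start and CCAAT matches 57, 88 and 155 bases before it in the printed stretch. Birc5 had neither motif in its window, and Cenpe a CCAAT match 12 bases before its start. In Anln the CHR letters stood after the start, at positions 22 (opposite strand) and 29 (strand of the gene), outside the printed stretch. RefSeq and GENCODE place some starts differently: 26 bases of the Ube2c stretch, 21 of Cenpe and all 150 of Kif2c (gene at chr4:117159639-117182639) lie inside the span that GENCODE gives the gene, the CHR match of Ube2c and the CCAAT match of Cenpe among them.

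Mitotic genes were higher in the R274X libraries, by small amounts. Of the 36, 22 rose, none fell and 14 did not pass the test (edgeR's quasi-likelihood test, adjusted p under 0.05 over all 14608 genes tested). Over all genes 10.1% were called higher and 7.89% lower. The median log2 fold change of the 36 was 0.30, with a range from -0.01 to 0.65, against a median of -0.02 for all genes tested. In 26 of the 36 the change lay above the upper quartile of all genes, 0.21 on the log2 scale. At an unadjusted p under 0.05, 26 were higher and none was lower, and DESeq2 and limma-voom called 23 and 19 higher and none lower. Over all 14608 genes DESeq2 called 1721 higher and limma-voom 1357. The lowest R274X library stood above the highest control in 28 of the 36, which held for 18.9% of all genes.

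**Figure D1:**
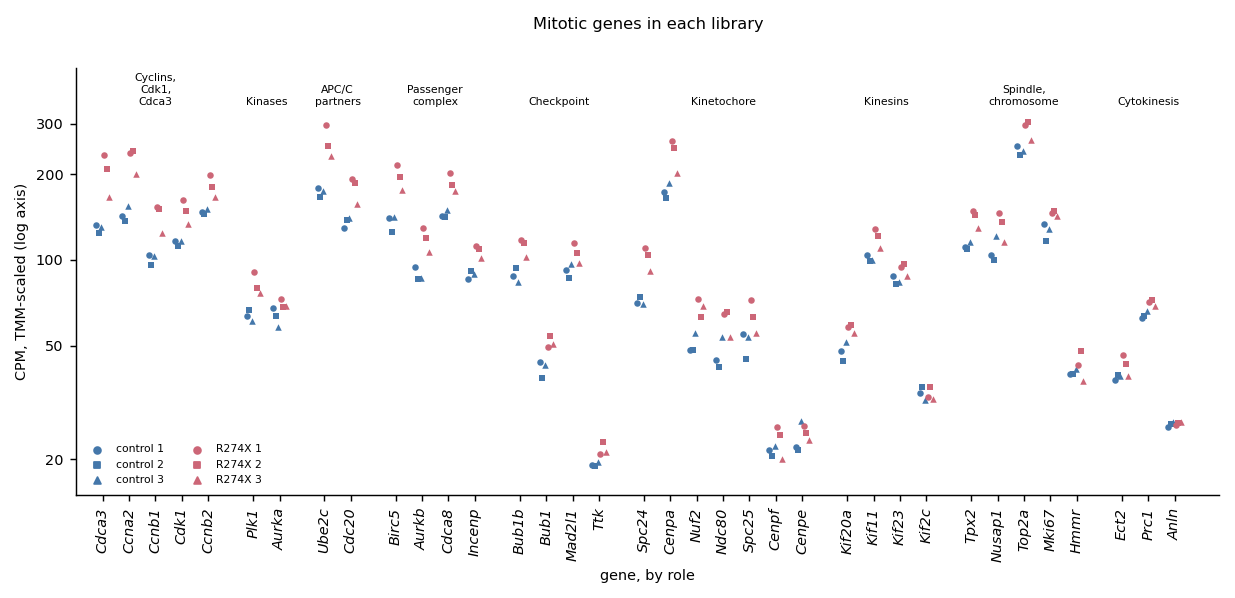
CPM of each mitotic gene in each of the 6 libraries, on a log axis, with genes grouped by role and, within a role, ordered by log2 fold change. Blue symbols are controls and red symbols R274X libraries; the symbol shape gives the library's number, which pairs nothing between groups, and the red triangle (R274X 3) is the lowest red symbol in 31 of 36 genes.

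Leaving out 1 library changed the count of the 36 that rose and the calls over all genes. Without control 1, 14 of the 36 rose (5.61% of all genes were called higher) and without control 2, 13 (4.56%). Without R274X 1 the number was 14 (4.73%) and without R274X 2 it was 14 (5.14%). By contrast, 18 rose without control 3 (1152 of 14949 genes were called higher) and 25 without R274X 3 (1882 of 15053). Over these 6 fits the median log2 fold change of the 36 lay between 0.25 and 0.37, against 0.30 with all libraries. R274X 3 was the lowest R274X library in 31 of the 36 genes. Among the 22 that rose, 12 were called in all 6 of these fits: Ccna2, Ube2c, Spc24, Birc5, Ccnb1, Cdca3, Aurkb, Nuf2, Cdca8, Cdc20, Cdk1 and Plk1. With upper-quartile scaling 18 rose and 8.32% of all genes were called higher. The share of higher genes among all calls was then 45.9%, against 56.0% with TMM scaling and 36.7% after quantile normalization of FPKM. After that normalization 7 of the 36 rose, and 663 of 13775 genes were called higher.

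**Figure D2:**
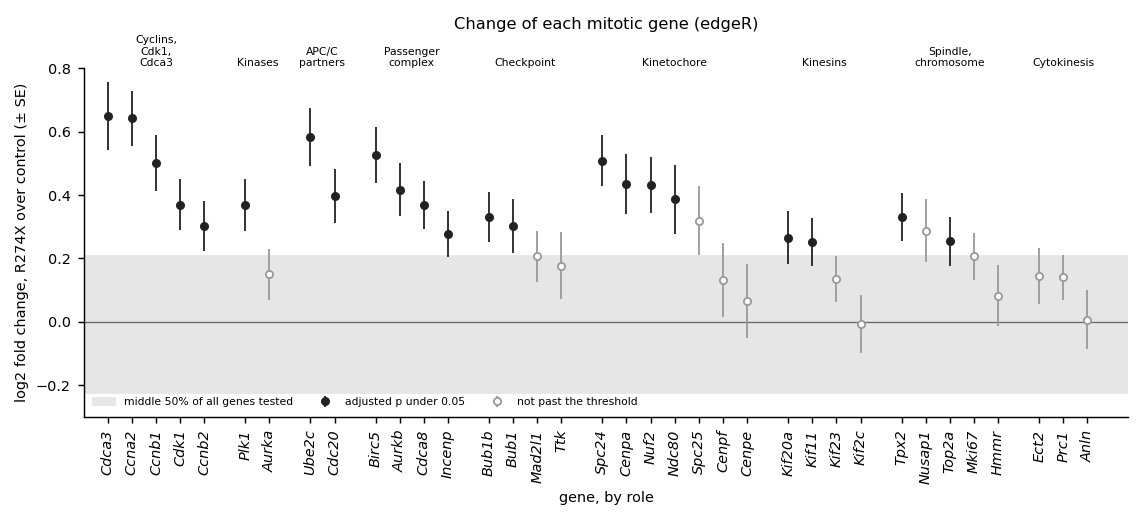
Log2 fold change of each mitotic gene, R274X over control, by role. Points are edgeR estimates, filled where the adjusted p is under 0.05, with an SE derived from the F statistic of the test. The grey band is the middle 50% of all 14608 genes tested, from -0.23 to 0.21. All points of the cyclins, the APC/C partners and the passenger complex are filled; Cenpe, also a kinesin, stands with the kinetochore genes and Kif20a and Kif23, which act in cytokinesis, with the kinesins.

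Cyclins and Cdk1 start mitosis: Cdk1 is the kinase, cyclin A2 (Ccna2) and the B cyclins (Ccnb1, Ccnb2) activate it, and Cdca3 is a cell cycle regulator that promotes mitotic entry. All 5 genes rose. Ccna2 (chromosome 3, 36564865 to 36572150, GRCm38) measured 142, 136 and 155 CPM in the control group, against 237, 241 and 199.6 CPM with R274X. Cdca3 measured 132, 124 and 130.4 CPM in the control group, against 233, 208 and 166 CPM with R274X. Every R274X value lay above every control value for both genes, with R274X 3 nearest to the controls. Ccna2 rose by 0.64 on the log2 scale (SE 0.0871, edgeR adjusted p = 0.000613) and Cdca3 by 0.65 (SE 0.108, adjusted p = 0.00292), the largest estimates of the 36.

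Ccnb1 measured 104, 95.9 and 103 CPM in the control group, against 154, 151 and 124 CPM with R274X, a log2 fold change of 0.50 (SE 0.0882, edgeR adjusted p = 0.00276). Cdk1 rose from 114.7 ± 2.72 to 148.2 ± 13.9 CPM (SD, n = 3 each; log2 fold change 0.37, adjusted p = 0.00779). Ccnb2 rose less, from 147.3 ± 2.92 to 181.7 ± 16.7 CPM (0.30, adjusted p = 0.0201), and did not pass without control 1, control 2, R274X 1 or R274X 2 (adjusted p from 0.0604 to 0.0905). Reads of near-identical pseudogenes can blur the B cyclins: Ccnb1-ps had 17 to 46 counts per library and Ccnb2-ps 8 to 26. Exons of Ccna2 share 510 bases with Exosc9 on the opposite strand, which stood at 0.24 on the log2 scale (edgeR adjusted p = 0.244), and whether counting used the strand is not stated, so reads of such overlaps cannot be assigned.

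The anaphase-promoting complex (APC/C) ends mitosis by marking cyclin B and securin for destruction. Its activator Cdc20 and its ubiquitin-conjugating enzyme Ube2c both rose. Ube2c (chromosome 2, 164769898 to 164778822, GRCm38) measured 179, 167 and 175 CPM in the control group, against 298, 252 and 231 CPM with R274X. Cdc20 measured 129.5, 138 and 139.9 CPM in the control group, against 193, 187 and 157 CPM with R274X. Neither gene had overlapping groups. The log2 fold changes were 0.58 for Ube2c (SE 0.0919, edgeR adjusted p = 0.00143) and 0.40 for Cdc20 (SE 0.0851, adjusted p = 0.00738). Ube2c shares 592 exon bases with Tnnc2 on the opposite strand, which had 0 counts in all libraries, and Cdc20 shares 53 with Elovl1 (log2 fold change 0.05, edgeR adjusted p = 0.763).

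The chromosomal passenger complex, Aurora B kinase (Aurkb) with its scaffold Incenp and the targeting subunits survivin (Birc5) and borealin (Cdca8), corrects faulty attachments of chromosomes. All 4 subunits rose. Birc5 measured 141, 125 and 142 CPM in the control group, against 216, 195 and 176 CPM with R274X, and Aurkb 94.5, 85.7 and 86.5 CPM against 129.7, 119.6 and 107 CPM. The groups did not overlap for any of the 4. Cdca8 shares 232 exon bases with 9930104L06Rik on the opposite strand, which had 188 to 270 counts per library. Log2 fold changes fell in the order Birc5 (0.53), Aurkb (0.42), Cdca8 (0.37) and Incenp (0.28), with edgeR adjusted p of 0.00194, 0.00538, 0.0062 and 0.0199, and the differences between subunits were not tested. Incenp, from 88.6 ± 2.95 to 107 ± 5.55 CPM (SD, n = 3 each), passed in none of the fits without 1 library except that without R274X 3 (adjusted p from 0.0503 to 0.0985 in the others). On the deposited FPKM scale, which is per length, the controls held these subunits at similar levels, 27.3 to 39.6 FPKM.

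Of the other mitotic kinases Plk1 rose and Aurka did not pass; the difference between them was not tested. Polo-like kinase 1 (Plk1), which acts from entry to cytokinesis, measured 63.6, 66.6 and 60.9 CPM in the control group, against 90.5, 79.8 and 76.6 CPM with R274X, without overlap (log2 fold change 0.37, SE 0.0825, edgeR adjusted p = 0.00944). Aurora A (Aurka), the kinase of spindle poles, had values of 67.7, 63.7 and 58.3 CPM in the control group, against 73.1, 68.4 and 68.9 CPM with R274X. Its groups were separate by a small margin, and its log2 fold change of 0.15 (SE 0.0804, edgeR adjusted p = 0.221) did not pass.

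The spindle checkpoint holds anaphase until all kinetochores are attached. Its kinase Bub1 and the checkpoint protein BubR1 (Bub1b) rose, while Mad2 (Mad2l1), which inhibits Cdc20, and the kinase Mps1 (Ttk) did not pass. Bub1b measured 87.7, 94.1 and 84.0 CPM in the control group, against 117, 115 and 102 CPM with R274X, and Bub1 43.9, 38.6 and 42.8 CPM against 49.5, 54.3 and 50.7 CPM. The log2 fold changes were 0.33 (SE 0.079, edgeR adjusted p = 0.0131) and 0.30 (SE 0.0858, adjusted p = 0.0294). Bub1b was not called without control 1, control 3, R274X 1 or R274X 2 (adjusted p from 0.0521 to 0.0599), nor Bub1 without control 1, 2 or 3, R274X 1 or R274X 2 (0.0622 to 0.144) or with upper-quartile scaling (0.0552). Mad2l1 stood at 0.21 (SE 0.08, edgeR adjusted p = 0.0919) and passed without R274X 3 (adjusted p = 0.0318). Ttk, the scarcest of the 4 at 19.2 ± 0.355 CPM in the control group, against 21.7 ± 1.16 CPM with R274X (SD, n = 3 each), stood at 0.18 (adjusted p = 0.27).

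Kinetochores bind microtubules through the NDC80 complex of Ndc80, Nuf2, Spc24 and Spc25, on a centromere marked by the histone variant Cenpa. Of 7 kinetochore and centromere genes 4 rose. Spc24 measured 70.7, 74.0 and 70.0 CPM in the control group, against 110.4, 104 and 91.3 CPM with R274X, and Nuf2 48.2, 48.3 and 55.6 CPM against 73.1, 63.1 and 69.0 CPM. Cenpa measured 173, 165 and 187 CPM in the control group, against 261, 246 and 203 CPM with R274X. All 3 genes had separate groups, with log2 fold changes of 0.51 (SE 0.0811, edgeR adjusted p = 0.00153), 0.43 (SE 0.0891, adjusted p = 0.00618) and 0.43 (SE 0.0945, adjusted p = 0.00818). Cenpa was not called without control 2 (adjusted p = 0.0538).

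Ndc80 itself measured 44.7, 42.0 and 53.7 CPM in the control group, against 64.4, 65.6 and 53.6 CPM with R274X. Its groups overlapped by a narrow margin, since control 3 equalled R274X 3 to within 0.2 CPM. The gene was called (log2 fold change 0.39, SE 0.109, edgeR adjusted p = 0.0295), but not without control 1, control 2, R274X 1 or R274X 2 (adjusted p from 0.116 to 0.136). With limma-voom (adjusted p = 0.0517) or without edgeR's robust option (0.0545) Ndc80 was not called. Spc25, the partner of Spc24, stood at 0.32 (SE 0.109) and did not pass in edgeR (adjusted p = 0.0631), but passed in DESeq2 (0.0495), with no count filter (0.0128) and without R274X 3 (0.0114). Cenpe, a kinetochore motor, and Cenpf, a large kinetochore protein, stood at 0.07 (SE 0.117, edgeR adjusted p = 0.731) and 0.13 (SE 0.118, adjusted p = 0.478) and had overlapping groups. The 4 NDC80 subunits, which form 1 protein complex, differed in RNA per length: control levels were 27.6 ± 0.651 FPKM for Spc24, 15.9 ± 1.78 for Spc25, 7.93 ± 0.7 for Nuf2 and 7.15 ± 0.976 for Ndc80 (SD, n = 3).

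Of 5 mitotic kinesins, Cenpe included, 2 rose, and the median log2 fold change was 0.14. Kif11 (Eg5), which pushes the spindle poles apart, rose from 100.9 ± 2.63 to 120.1 ± 9.26 CPM (SD, n = 3 each; log2 fold change 0.25, edgeR adjusted p = 0.0381). Kif20a, a motor of the central spindle, rose from 48.0 ± 3.62 to 57.7 ± 2.0 CPM (0.27, adjusted p = 0.045). Both calls lay near the threshold: Kif11 was lost without control 1, 2 or 3, R274X 1 or R274X 2 (adjusted p from 0.0881 to 0.145) and Kif20a without control 1, control 2, R274X 1 or R274X 2 (0.127 to 0.195). With all libraries, Kif11 was also lost with limma-voom (0.053), upper-quartile scaling (0.0703) and the robust option off (0.052). Kif20a was lost in these (0.0525 to 0.0842), with DESeq2 (0.0519), no count filter (0.0632) and a mean count of at least 50 (0.0511). Kif20a also shares 1271 exon bases with Cdc23 on the opposite strand (log2 fold change -0.05, adjusted p = 0.745). Kif23, the motor of the centralspindlin complex, stood at 0.14 (SE 0.0714, edgeR adjusted p = 0.213). Kif2c (MCAK), a microtubule depolymerase of the centromere, measured 34.0, 35.8 and 32.2 CPM in the control group, against 33.2, 35.8 and 32.6 CPM with R274X. These values interleave. Their log2 fold change of -0.01 (SE 0.0908) had an edgeR adjusted p of 0.969, and its sign changed with the scaling (0.002 with DESeq2's).

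Cytokinesis separates the daughter cells. Of Prc1, which bundles microtubules of the central spindle, Ect2, the activator of RhoA at the cleavage furrow, and Anln (anillin), a scaffold of the contractile ring, none passed in edgeR, DESeq2 or limma-voom, and none had an unadjusted p under 0.05. Anln (chromosome 9, 22332012 to 22389188, GRCm38) had the log2 fold change nearest to 0 of the 36, with 26.0, 26.7 and 27.1 CPM in the control group, against 26.3, 26.8 and 27.0 CPM with R274X. The estimate was 0.006 (SE 0.0931, edgeR adjusted p = 0.975) and turned to -0.039 with upper-quartile scaling. Prc1 measured 64.2 ± 1.83 and 70.7 ± 1.77 CPM and Ect2 38.8 ± 0.723 and 42.9 ± 3.56 CPM in the 2 groups (SD, n = 3 each; log2 fold changes 0.14 and 0.15, edgeR adjusted p = 0.205 and 0.285). Prc1 shares 911 exon bases with Rccd1 on the opposite strand (log2 fold change -0.14, adjusted p = 0.44).

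Among spindle and chromosome factors, Tpx2, which activates Aurora A and nucleates spindle microtubules, and Top2a, the topoisomerase that untangles sister chromatids, rose. Tpx2 measured 111, 109 and 116 CPM in the control group, against 148, 144 and 129.8 CPM with R274X (log2 fold change 0.33, SE 0.0746, edgeR adjusted p = 0.00991; 0.0559 without control 2). Top2a measured 250.1, 234 and 242 CPM in the control group, against 297, 305 and 264 CPM with R274X, the highest CPM of the 36 (0.25, SE 0.0775, adjusted p = 0.0391). It was not called without control 1, 2 or 3, R274X 1 or R274X 2 (adjusted p from 0.0903 to 0.152), with upper-quartile scaling (0.0709) or with the robust option off (0.0559). Both genes had separate groups, with R274X 3 lowest of its group. Mki67, which coats mitotic chromosomes, had control values of 134, 116 and 129 CPM and R274X values of 146, 148 and 143 CPM. The groups were separate, yet the log2 fold change of 0.21 (SE 0.0744, edgeR adjusted p = 0.0716) did not pass. Nusap1, a microtubule bundling protein (0.29, SE 0.0982, edgeR adjusted p = 0.0619), and Hmmr, a spindle assembly factor (0.08, SE 0.0972, adjusted p = 0.596), did not pass either. Nusap1 shares 172 exon bases with Oip5 on the opposite strand. With all libraries it passed in DESeq2 (adjusted p = 0.0427) and in edgeR with no count filter (0.0123). Nusap1 also passed in edgeR without control 3 (adjusted p = 0.0338) or R274X 3 (0.00855).

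Levels per length spanned almost 2 orders of magnitude on the deposited FPKM scale. Ccnb2 was the most abundant, at 95.4 ± 2.44 FPKM in controls and 118.3 ± 10.7 FPKM in R274X libraries, followed by Cdc20 (72.1 ± 3.01 and 95.5 ± 10) and Ube2c (66.2 ± 2.66 and 99.7 ± 13; SD, n = 3 each). Cenpf was the scarcest, at 1.38 ± 0.0649 and 1.52 ± 0.195 FPKM, below Cenpe, Anln and Ttk. Among the 36, the more abundant genes had the larger changes. Spearman's rho between log2 fold change and the mean FPKM of all 6 libraries was 0.78. The genes share the same 6 libraries and are not independent. FPKM is per length, so this rho is not separate from the relation to length given below. It was not computed over all genes tested. The median was 31.0 FPKM for the 22 that rose and 7.94 FPKM for the 14 that did not pass.

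**Figure D3:**
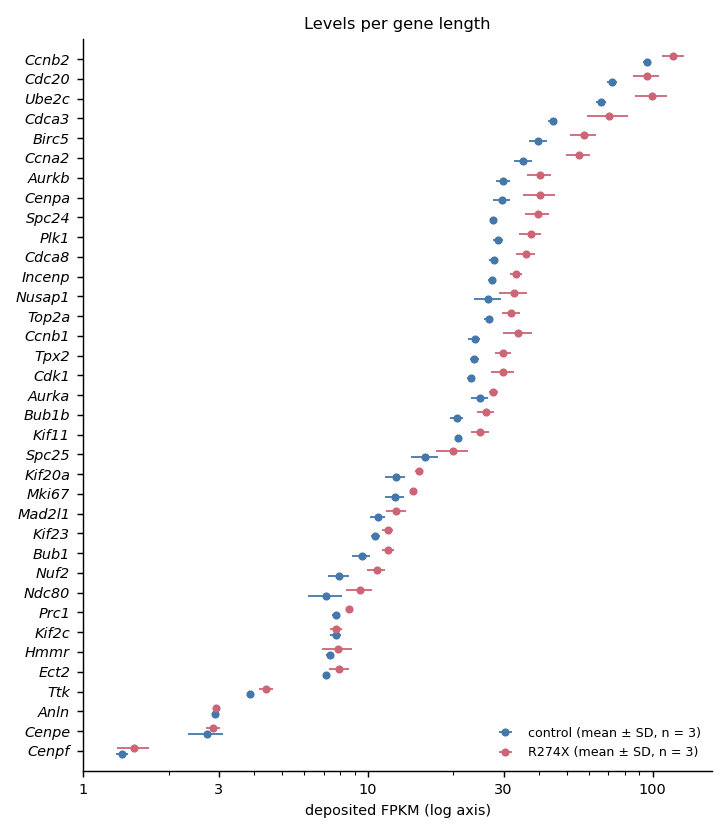
Deposited FPKM of the 36 mitotic genes (mean ± SD of 3 libraries per group, log axis), ordered by their mean. Blue is control and red R274X. Ccnb2 stands highest and Cenpf lowest, and the groups lie together for Kif2c and Anln.

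Gene length moved with the result. The median merged exon length was 4302 bases for the 22 genes that rose, 6666 bases for the 14 that did not pass and 3927 bases for all genes tested. Spearman's rho between length and log2 fold change was -0.58 over the 36 and -0.24 over all genes tested, in the same 6 libraries. With an offset per library for the trend over length, 26 of the 36 rose, none fell and rho over the 36 was -0.23. In that fit 1548 of 14602 genes were called higher and 913 lower. All 22 calls were kept, and Kif23, Mad2l1, Mki67 and Prc1 were added.

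**Figure D4:**
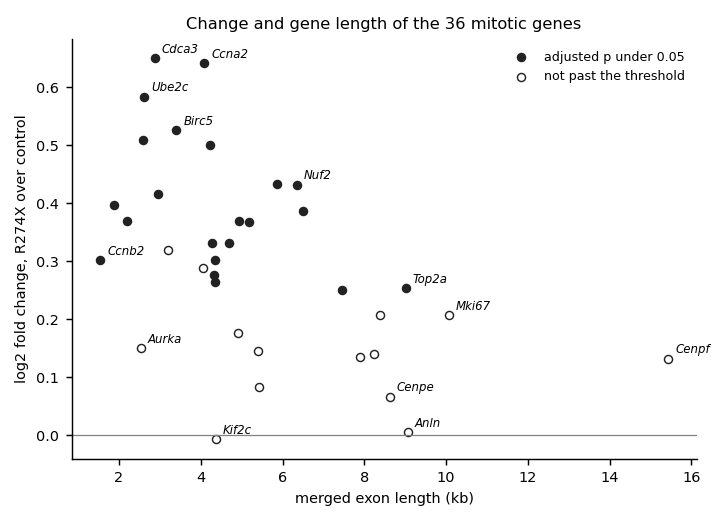
Log2 fold change (R274X over control) against merged exon length in kilobases, 1 point per mitotic gene, filled where the adjusted p is under 0.05. Short genes such as Cdca3, Ube2c and Birc5 lie high, and Anln, Cenpe and Cenpf lie low; Kif2c and Aurka are short or of middle length and low.

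The other mitotic genes of the lists rose in a smaller share, a difference that was not tested. In 5 lists with 146 further genes, 31 rose and 3 fell; DESeq2 and limma-voom also called 3 lower. Over all genes 10.1% were called higher, a share that the checkpoint list (4 of 34) was close to. Of 8 condensin genes, which compact chromosomes, 5 rose and none fell or was lower at an unadjusted p under 0.05 (median log2 fold change 0.24), led by Ncaph (65.7 ± 2.64 to 89.7 ± 7.26 CPM, SD, n = 3 each; edgeR adjusted p = 0.00285) and Ncapg2 (22.4 ± 2.39 to 35.1 ± 5.48 CPM, adjusted p = 0.00475), with Ncapg and Smc4. Of 32 other centromere and kinetochore genes 6 rose and 1 fell (median 0.18). Pmf1, a subunit of the MIS12 complex, rose by 0.52 and Cenps by 0.76 on the log2 scale (edgeR adjusted p = 0.00121 and 0.00127), followed by Cenpn and Cenpm. Hjurp, the chaperone that loads Cenpa, fell from 219.3 ± 8.4 to 163 ± 13.2 CPM (SD, n = 3 each; log2 fold change -0.43, adjusted p = 0.00328), opposite to Cenpa itself. Hjurp was called in all 6 fits without 1 library.

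Of 46 other spindle, kinesin and cytokinesis genes 10 rose and 1 fell (median 0.12). Lmnb1, the lamin B1 of the nuclear envelope, rose by 0.63, Kif22 by 0.43, Tacc3 by 0.40 and Pbk by 0.35 on the log2 scale, while Numa1, which anchors spindle poles, fell by 0.41 (edgeR adjusted p = 0.00228). Of 34 other checkpoint, APC/C and cohesion genes 4 rose and none fell (median 0.10; 1 was lower at an unadjusted p under 0.05): Cdca5 (sororin), Ube2s (the APC/C chain-extending enzyme), Trip13 and Rad21 (cohesin), with log2 fold changes of 0.38, 0.45, 0.35 and 0.23. Of 26 entry and transcription regulators 6 rose and 1 fell (median 0.16). Mybl2 (B-Myb) rose from 49.3 ± 2.41 to 67.4 ± 4.61 CPM (SD, n = 3 each; log2 fold change 0.45, edgeR adjusted p = 0.00344), Gmnn, Cdc25b and Cks1b also rose. Foxm1, singled out after its value was seen because it acts with B-Myb, did not pass (0.22, adjusted p = 0.0736), nor did the MuvB genes Lin9, Lin37, Lin52 and Lin54 (-0.18 to 0.24). Wee1, the kinase that inhibits Cdk1, fell from 63.1 ± 2.59 to 51.9 ± 0.987 CPM (-0.28, adjusted p = 0.0236). Without control 1, control 2, R274X 1 or R274X 2 the 31 rises became 18, 10, 14 and 18. The shares of all genes called higher in these fits were 5.61%, 4.56%, 4.73% and 5.14%. Of the genes named here Trip13, Rad21, Ncapg, Smc4, Cks1b, Wee1, Gmnn, Cdc25b and Pbk lost the threshold in at least 2 such fits (adjusted p of up to 0.195, the highest for Rad21), and Ube2s and Tacc3 without control 2 (0.0514 and 0.0554).

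Of 40 DNA replication genes, which act in the preceding S phase, 16 rose, none fell and 24 did not pass, with a median log2 fold change of 0.22, led by Rrm2 (0.78), Uhrf1 (0.55), Tyms (0.53) and Dut (0.39). No replication gene was lower at an unadjusted p under 0.05, and DESeq2 and limma-voom called none lower. The difference between this list and the 36 mitotic genes was not tested. Over all genes 10.1% were called higher. Without control 1, control 2, R274X 1 or R274X 2 the 16 rises became 6, 4, 6 and 5. The shares of all genes called higher were then 5.61%, 4.56%, 4.73% and 5.14%. Without control 3, 9 replication genes rose (1152 of 14949 genes were called higher) and without R274X 3, 22 (1882 of 15053). Dut was not called without control 2 (edgeR adjusted p = 0.0518).

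Markers of some other cell types were also higher in the R274X libraries. Over all genes 10.1% were called higher and 7.89% lower. Summed over the 36 genes, the level was 3137 to 3317 CPM in controls and 4472, 4247 and 3780 CPM in R274X 1, 2 and 3. The immunoglobulin share was 6.85%, 7.95% and 4.45% in those libraries, so R274X 3 was lowest in both measures. B lineage markers rose in 8 of 18 (summed level 1015 to 1988 CPM in the control group, against 2812 to 5094 CPM with R274X), plasma cell markers in 5 of 8 (165.8 to 719 against 1772 to 4282 CPM) and macrophage markers in 6 of 10 (280.8 to 574 against 1252 to 2632 CPM). In each of these lists, too, R274X 3 had the lowest sum of its group. For LSK gate (1453 CPM), neutrophil (37470 CPM) and T and NK markers (150 CPM) R274X 3 had the highest sum of its group. Erythroid markers rose in 4 of 13 (1066 to 1386 against 2092 to 3407 CPM), with R274X 2 lowest. At an unadjusted p under 0.05 in edgeR, 1 erythroid marker was lower and no B lineage, plasma cell or macrophage marker was. T and NK markers rose in 6 of 8 and fell in 1, while their sum was 164 to 182 CPM in the control group, against 113 to 150 CPM with R274X. Neutrophil markers were not called in either direction among 12 (19110 to 31880 against 14380 to 37470 CPM), and at an unadjusted p under 0.05 none was higher or lower. No marker in the files was at 0 in all libraries, and the part of such cells in the rise of the mitotic genes was not tested.

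**Figure D5:**
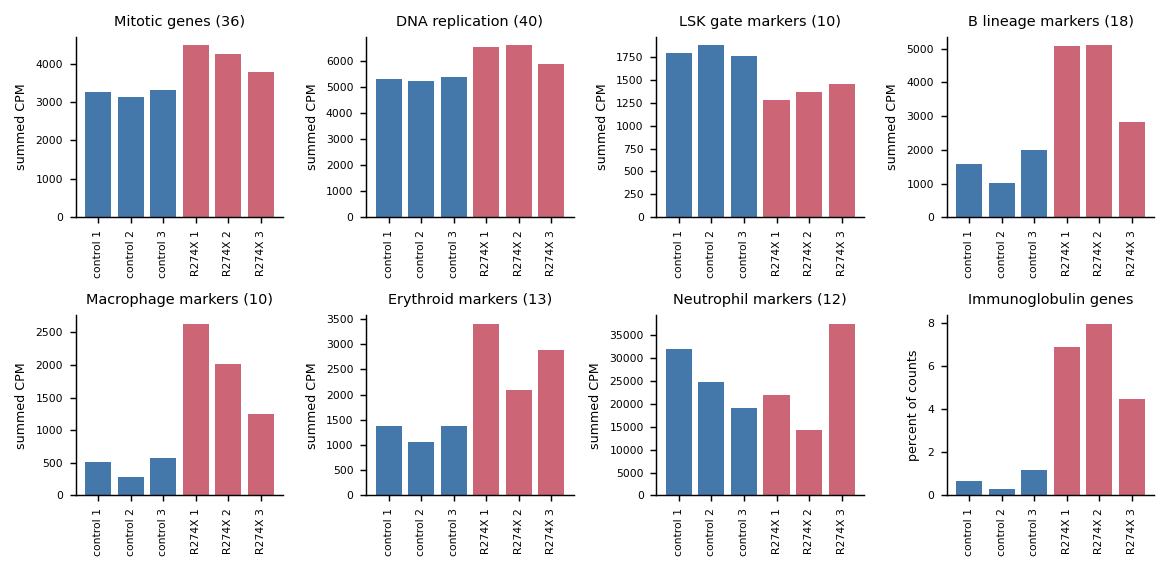
Summed CPM per library of the mitotic genes, the DNA replication genes and 5 marker lists, and the percent of counts in immunoglobulin genes; blue bars are controls and red bars R274X libraries, and each axis starts at 0. The mitotic sum is lowest in R274X 3 among the R274X libraries, as are the B lineage and macrophage sums and the immunoglobulin percent. The LSK gate and neutrophil sums are highest in R274X 3 among these libraries.

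With the immunoglobulin percent of each library as a covariate, none of the 36 genes was called in edgeR and none had an unadjusted p under 0.05. The median log2 fold change was then 0.02, and 0.465% of all genes were called higher. The covariate itself separates the groups, since every R274X library had a higher percent than every control, so the share and the genotype cannot be told apart in this fit. With all immunoglobulin genes removed from the counts instead, the same 22 genes rose and the median was 0.31. Over all genes 1522 of 14494 were then called higher.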

How the data were processed

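RNA from LSK cells was extracted with TRIzol and sequenced from libraries of the TruSeq RNA kit (Illumina), per the labels' protocols, in 3 control and 3 R274X libraries grouped by labelled genotype. The submitters' processing notes name Bowtie and mm8; the tool and annotation used for counting, and its strand setting, are not stated in the labels. The authors deposited whole-number read counts per Ensembl gene and FPKM values, which per the files were already scaled between libraries: the library size implied by each FPKM column equalled the median-ratio size factor times the geometric mean total in all 6. Of 54532 gene IDs, 54409 matched a symbol. Gene coordinates and exon lengths came from GENCODE M21 (GRCm38), not from the deposited files.

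Counts were tested with edgeR 4.0.16 (R 4.3.3; TMM scaling, filterByExpr with a minimum count of 10, robust quasi-likelihood test, two-sided) over all genes, with Benjamini-Hochberg adjustment and a threshold of 0.05. Alternatives were DESeq2 1.42.0, limma 3.58.1 (voom, and log2 of FPKM plus 1 or 0.1 with a minimum mean of 0.5 FPKM), other scalings and filters, an offset for gene length, immunoglobulin genes removed or their percent as covariate, and each library left out. The SE given with edgeR estimates was derived from the test. It is the absolute log2 fold change divided by the square root of the F statistic. The procedure was tested on simulated data. Counts per member and library ran from 300 to 4724.

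The members and lists were chosen with earlier results of these data known. Named genes were all 36 members, from each other list up to 4 genes per direction with the smallest p past the threshold, and Phf6, Kit and Ly6a. Promoters were to be shown for the 2 members with the smallest p and 3 with the largest; Ccna2 and Spc24 had no window, so the next by p with one was taken. The chi-square statistic per gene between replicates of a group ran from 11.15 to 43.64, so no library was a copy of another in its group. Pairs across the groups were not compared in this way.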

Additional observations from a re-analysis of the deposited data

How the results depend on the processing

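With 20 alternatives, none of the 36 mitotic genes fell in any. The number that rose, 22, became 0 with the immunoglobulin percent as covariate and 15 with FPKM plus 1 or plus 0.1. It became 3 with FPKM plus 1 without a filter and 7 after quantile normalization, and 13 to 25 with 1 library left out. Calls over all genes moved as well. Among these, 1469 of 14608 were higher in the main fit, 68 of 14608 with the covariate and 995 of 13775 with FPKM plus 1. With FPKM plus 0.1, 967 of 13775 were higher, and without a filter 435 of 25117. After quantile normalization 663 of 13775 were higher, and with 1 library left out 682 of 14955 to 1882 of 15053. For the other mitotic genes the 31 rises became 0 with the covariate, 19 with FPKM plus 1 or plus 0.1, 7 without a filter, 8 after quantile normalization and 10 to 36 with 1 library left out. Their 3 falls became 0 with the covariate, 1 with unfiltered FPKM and 2 to 5 with 1 library left out. The 16 rises of replication genes became 0 with the covariate, 8 and 9 with FPKM plus 1 and plus 0.1, 1 without a filter, 1 after quantile normalization and 4 to 22 with 1 library left out. The cause of these shifts was not tested. With the covariate, log2 fold changes turned negative for Ccnb1 (-0.016), Cdc20 (-0.048), Cenpa (-0.135), Ndc80 (-0.226), Kif11 (-0.022), Top2a (-0.089), Nusap1 (-0.237), Spc25 (-0.158), Mad2l1 (-0.095), Kif23 (-0.079), Ect2 (-0.119), Cenpf (-0.412), Hmmr (-0.46) and Cenpe (-0.239). Ccnb2 turned to -0.016 after quantile normalization. Kif2c turned positive with DESeq2 (0.002), RLE scaling (0.002), the length offset (0.023), FPKM plus 1 (0.001), plus 0.1 (0.002) and unfiltered FPKM (0.001). Anln turned negative with upper-quartile scaling (-0.039), no count filter (-0.014) and a mean count of at least 50 (-0.006). With 1 library left out, Hmmr ranged from -0.004 to 0.169, Cenpe from -0.012 to 0.171, Kif2c from -0.056 to 0.02 and Anln from -0.024 to 0.018. Over the 36 genes and 20 alternatives, 561 values kept their direction and side of the threshold, 115 kept the direction and lost the threshold, 12 gained it and 32 changed sign. No paired analysis was possible because the labels give the 2 groups no shared replicate numbers; the numbers 1 to 3 used here only name libraries in order of deposit. Counting error weighs most on Cenpf and Ttk, which had as few as 300 and 318 counts in a library.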
